A study of Nematostella vectensis with 9 samples.

Results

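The comparison set embryos of Nematostella vectensis, the starlet sea anemone, that had been injected with a morpholino against NvBMP2/4 beside embryos injected with dextran, both collected at 24 h after fertilization. It took 6 of the 9 libraries of the series, 3 per group, chosen by their labels and by no measured value. The other 3 libraries, from embryos with RNA for a dominant negative NvTCF, entered the statistical fit only to help estimate the spread between libraries. All embryos grew from fertilized, microinjected eggs in diluted seawater. RNA came from whole embryos, was enriched for poly-A mRNA and was sequenced as single 50 bp reads. A morpholino is a synthetic antisense oligonucleotide that blocks the translation or the splicing of its target, and dextran is an inert sugar polymer often co-injected as a tracer. The dextran embryos received no oligonucleotide, so a response to the injected oligonucleotide as such cannot be told apart from a response to less BMP2/4.

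BMP2/4 belongs to the bone morphogenetic proteins, which cells secrete as signals. These ligands bind paired receptor kinases at the cell surface, which phosphorylate Smad1/5, and the activated Smad moves with Smad4 into the nucleus to change transcription. In Nematostella, BMP2/4 is expressed on one side of the blastopore together with its extracellular antagonist Chordin, and BMP signalling sets up the directive axis, which runs across the oral-aboral axis. The comparison addresses which transcripts depend on BMP2/4 at this early stage.

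The values were counts of reads per JGI gene model, a predicted transcript of the first genome assembly. The files give each model a number and a name without a gene symbol, and 0 of 21946 model numbers matched the RefSeq gene table at hand. Symbols and functions were therefore assigned to none of them. The level of NvBMP2/4 itself was not analysed here, and the knockdown was not checked in these libraries. Neither the tissue nor its cell types could be checked against markers. In whole embryos, fewer cells of a type and less RNA per cell cannot be told apart.

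The 6 libraries were unequal. Counts on gene models ran from 1948761 to 5557005, and between 16146 and 18682 models had at least 1 count per library. The share of all counts without a reference sequence was 58.9%, 41.97% and 43.5% in morpholino replicates 1, 2 and 3. In dextran replicates 1, 2 and 3 it was 49.2%, 57.1% and 87.8%. Counts left on ribosomal RNA were above every dextran library in each morpholino library. The 28S sequence stood at 9354, 10203 and 5076 CPM (counts scaled to a total of 1000000 on gene models) in the morpholino libraries and at 4891, 2530 and 3225 CPM with dextran (exact two-sided permutation p = 0.1, the smallest that 3 libraries against 3 can give, adjusted p = 0.4 over 8 library measures). With 3 libraries a group, no measure can reach a p under 0.05 in that test. With the share of counts without a reference as a covariate, edgeR called 0 models, as without it, and 1985 instead of 1599 had an unadjusted p under 0.05 (1289 higher, 696 lower). That share was 87.8% in dextran replicate 3 and at most 58.9% in the other libraries of the fit. The covariate therefore largely marks out that 1 library, and this fit cannot settle the part of the share. The part of the other measures in the results below was not tested. BMP2/4 morpholino replicate 1 stood apart from the other libraries, with correlations of 0.76 to 0.81 on the log2 CPM scale to the other 5. It had the fewest models detected of the 6 libraries (16146). Mitochondrial counts were highest there, at 498 CPM against 8.72 to 278 CPM in the others. Its 100 most abundant models took 31.4% of its counts on models, against 20.8% to 27.2% in the others. Dextran replicate 3 was the next most distant, and its share of counts without a reference was the largest of the 6. Results that rest on these libraries are given with and without them.

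The models with the smallest p-values differed between the groups by 6.64-fold to 10.7-fold in the fit. They were chosen as the 2 models with the smallest p in each direction among those whose mean reached 1 CPM and whose groups did not overlap, so that the separation of their libraries is a condition of the choice. Levels are TMM-scaled CPM, that is, counts scaled to a library total of 1000000 after correction for composition.

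Among higher models, model 194914 (on scaffold 444 of the assembly, by its JGI name) was at 152, 151 and 202 CPM in morpholino replicates 1, 2 and 3, on 450, 753 and 785 counts. In dextran replicates 1, 2 and 3 it stood at 31.7, 12.4 and 13.9 CPM, on 194, 25 and 41 counts. The lowest morpholino library was 4.76 times the highest dextran library. The fitted log2 fold change of model 194914 was 3.09 (SE 0.403), with an edgeR adjusted p = 0.132 over all models tested.

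Model 93004 (scaffold 32) was scarcer, at 13.8, 15.6 and 11.8 CPM with the morpholino against 2.12, 0.497 and 0.680 CPM with dextran. The dextran values of model 93004 rest on 13, 1 and 2 counts, so its fold carries a wide counting error. Its log2 fold change was 3.42 (SE 0.572, edgeR adjusted p = 0.197), and 4.44 without dextran replicate 1. The morpholino values lay close together, and the nearest libraries of the groups differed by a factor of 5.58.

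Among lower models, model 246365 (scaffold 213) was at 9.79, 10.01 and 11.6 CPM in the morpholino libraries and at 56.8, 101 and 51.3 CPM with dextran. The morpholino values of model 246365 were nearly equal (10.5 ± 0.978 CPM, SD, n = 3), morpholino replicate 1 included, whereas dextran replicate 2 was well above the other dextran libraries. The log2 fold change of model 246365 was -2.73 (SE 0.379, edgeR adjusted p = 0.132).

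Model 183101 (scaffold 44) was at 14.2, 28.4 and 34.7 CPM in the morpholino libraries and at 106, 195 and 332 CPM with dextran. Both outermost values came from the divergent libraries, the lowest from morpholino replicate 1 and the highest from dextran replicate 3. The log2 fold change of model 183101 was -3.03 (SE 0.473, edgeR adjusted p = 0.197), and it was -2.27 (edgeR adjusted p = 0.0432) without both of them. The calls of the 4 models changed with the fit. An adjusted p under 0.05 was reached in 5 of 19 alternatives by model 194914, in 2 by 93004, in 4 by 246365 and in 5 by 183101. The adjusted p of each was 0.632 in an edgeR fit on only the 6 libraries compared and 0.735 without dextran replicate 2.

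**Figure D1:**
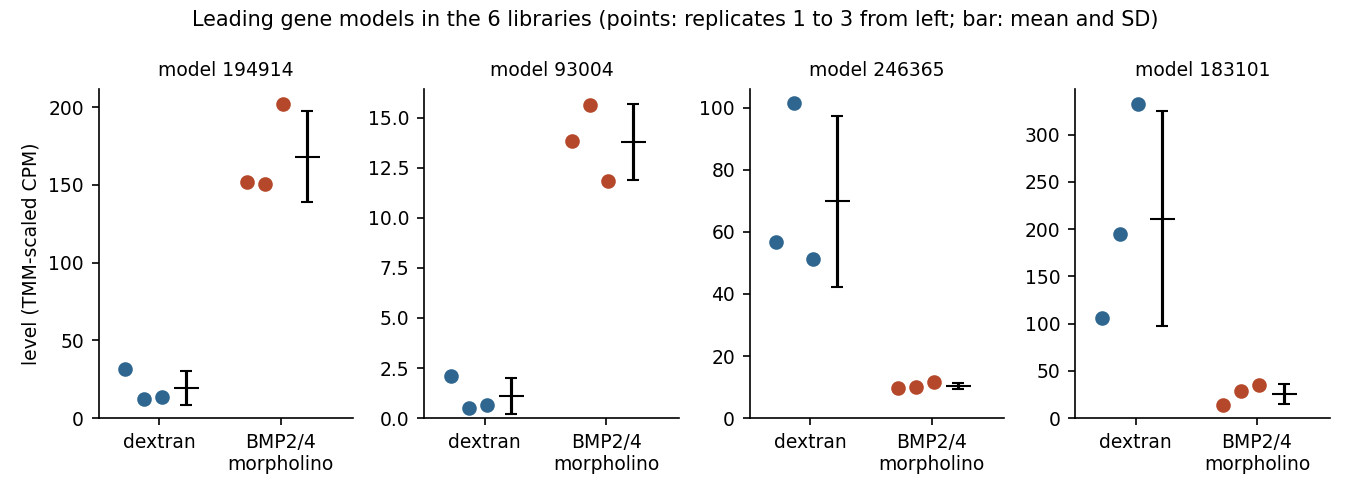
Level of the 4 leading gene models, in TMM-scaled CPM on linear axes that start at 0, in each dextran (blue) and BMP2/4 morpholino (red) library; points are replicates 1 to 3 from left to right and the black bar is the mean with its SD. Model 194914 sits at 151 to 202 CPM with the morpholino against 12.4 to 31.7 CPM with dextran, and model 246365 at 9.79 to 11.6 against 51.3 to 101 CPM.

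No model was called across the whole table. Of 13559 models tested by edgeR's quasi-likelihood test, 0 had a Benjamini-Hochberg adjusted p under 0.05 (0% of those tested). At an unadjusted p under 0.05 there were 1599 (11.8% of those tested, where 5% is 678), of which 953 (7.03%) stood higher and 646 (4.76%) lower with the morpholino. Limma-voom also called 0 models, limma-voom with library quality weights called 116 (0.856%), and the Wald test of DESeq2 called 228 (1.68%), of which 116 (0.856%) stood higher and 112 (0.826%) lower. Every one of DESeq2's 228 models lay within the 1599, and 45 higher and 45 lower models were called by both DESeq2 and the weighted limma fit. The median log2 fold change of all tested models was 0.07 under TMM scaling and -0.04 when libraries were scaled by their totals, a shift of -0.12. With totals the unadjusted counts were 583 higher and 647 lower. The excess of higher models stayed with size factors of DESeq2 (947 higher, 673 lower) and upper-quartile scaling (866 higher, 688 lower). Limma-voom, with TMM scaling, gave 577 higher and 757 lower. The excess of higher over lower models thus depended on both the scaling and the test.

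The groups did not overlap for 2003 models (14.8% of those tested), with every morpholino library above every dextran library for 931 (6.87%) and below for 1072 (7.91%). With library totals the split was 702 above and 1279 below. Among the models without overlap, 483 (3.56% of those tested) were higher by 2-fold or more in the fit and 557 (4.11%) lower by as much. The 2 criteria picked partly different models. Of the 953 models higher at an unadjusted p under 0.05, 569 (59.7%) had no overlap, which is 61.1% of the 931, and of the 646 lower ones 514 (79.6%) had none, which is 47.9% of the 1072.

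**Figure D2:**
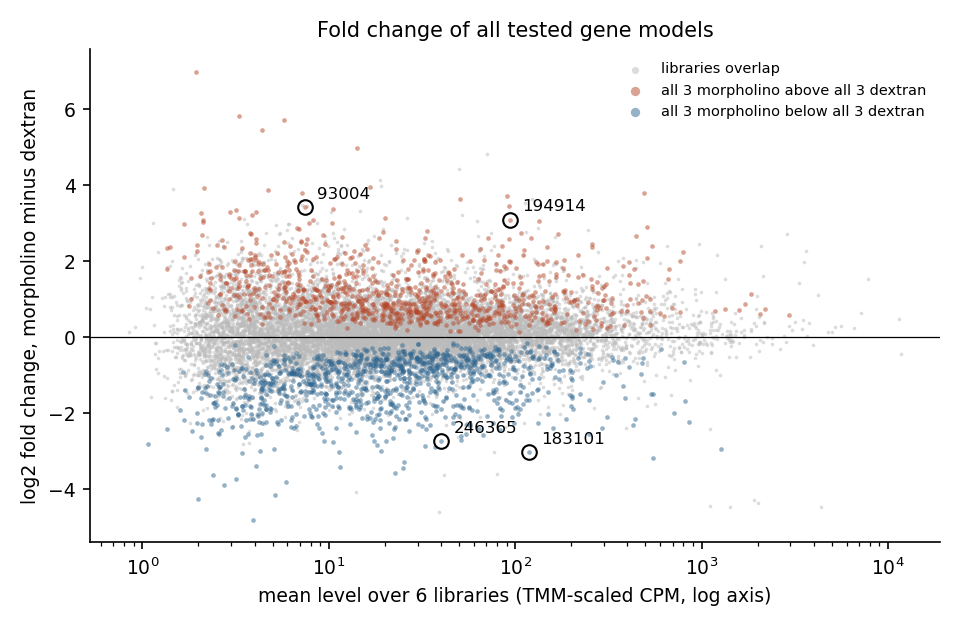
Fitted log2 fold change (morpholino minus dextran) of each of the 13559 tested gene models against its mean level over the 6 libraries, in TMM-scaled CPM on a log axis; red and blue points are models whose morpholino libraries all lie above (931) or all below (1072) the dextran libraries, and grey points overlap. The 4 circled models lie far from 0, and model 93004 is the scarcest of them.

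Morpholino replicate 1 held the most extreme value in most of the models that differed. Of the 953 higher models, 719 (75.4%) had their highest level of all 6 libraries in morpholino replicate 1, 153 (16.1%) in replicate 2 and 81 (8.50%) in replicate 3. Among the 8109 tested models whose highest level lay in any morpholino library, which the choice of higher models favours, replicate 1 held it for 52.9%. Of the 643 lower models whose lowest level lay in a morpholino library, 500 (77.8%) had it in replicate 1, against 63.3% of the 7861 tested models with their lowest level in that group. All 646 lower models had their highest level in a dextran library, and 419 (64.9%) had it in replicate 3, against 46.8% of the 5450 tested models with their highest level in that group. The higher models together took 17.9%, 9.72% and 7.12% of the scaled counts in morpholino replicates 1, 2 and 3, and 5.74%, 5.03% and 4.53% in the dextran libraries. The lower models took 1.08%, 2.25% and 2.68% in the morpholino libraries and 4.44%, 6.09% and 12.7% in the dextran libraries. These shares describe models that were selected for differing.

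The same library stood alone far more often than any other. With 0.5 CPM added to each level, morpholino replicate 1 was at least 4-fold above the other 5 libraries for 265 models and at least 4-fold below them for 758. The corresponding numbers were 35 and 79 for dextran replicate 3, and at most 7 and 9 for each of the other 4 libraries. Only 50 models were among the 100 most abundant of all 3 morpholino libraries, whereas 62 were among those of all 3 dextran libraries, and 36 models reached the 100 most abundant in morpholino replicate 1 alone.

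**Figure D3:**
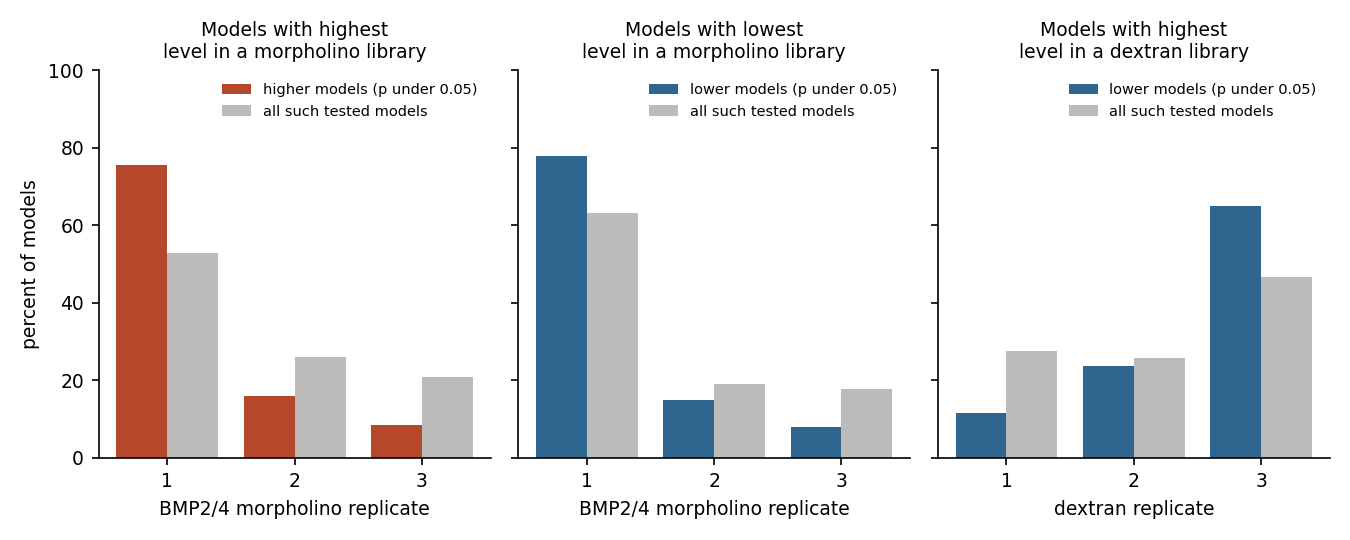
Percent of gene models whose extreme level lies in each replicate, among models with their highest (left) or lowest (middle) level in a morpholino library or their highest in a dextran library (right); red and blue bars are models at an unadjusted edgeR p under 0.05 and grey bars all tested models of that kind. Morpholino replicate 1 holds 75.4% against 52.9% (left) and 77.8% against 63.3% (middle), and dextran replicate 3 holds 64.9% against 46.8% (right).

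Leaving out libraries changed how many models differed and which. The count at an unadjusted p under 0.05 was 1537 without morpholino replicate 1 (11% of those tested), 1769 without replicate 2 (12.7%) and 2623 without replicate 3 (18.5%). It was 1682 without dextran replicate 1 (12.1%), 953 without dextran replicate 2 (6.74%) and 1031 without dextran replicate 3 (7.3%). Without morpholino replicate 1, 418 of the 953 higher models and 498 of the 646 lower ones kept an unadjusted p under 0.05 in the same direction. Without dextran replicate 3, 465 of the higher and 314 of the lower models did so. EdgeR called 10 models (0.0719% of those tested), 9 higher and 1 lower, without dextran replicate 1 and 0 without any other single library.

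A core of 464 models (3.42% of those tested) stayed at an unadjusted p under 0.05, in the same direction, in all 6 fits that left out a library. It held 252 higher models (1.86%), with a median log2 fold change of 1.78 and a range from 0.80 to 6.997, and 212 lower models (1.56%), with a median of -1.82 and a range from -4.81 to -0.80. No overlap between the groups was seen for 236 of the 252 and for 209 of the 212. DESeq2 called 114 of the 252 and 105 of the 212, which is 98.3% and 93.8% of its own calls in each direction. Over all tested models, 14.8% had no overlap and DESeq2 called 1.68%. The core was chosen by its p in these same libraries, so neither count is separate support for it. The higher core models took 4.10%, 2.77% and 2.24% of the scaled counts in the morpholino libraries and 1.29%, 1.07% and 0.998% in the dextran libraries. The lower core models took 0.286%, 0.747% and 0.799% with the morpholino and 1.82%, 2.40% and 2.49% with dextran. Morpholino replicate 1 was again the highest library for 174 of the 252 (69.0%), and it was the lowest for 171 of the 212 (80.7%).

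**Figure D4:**
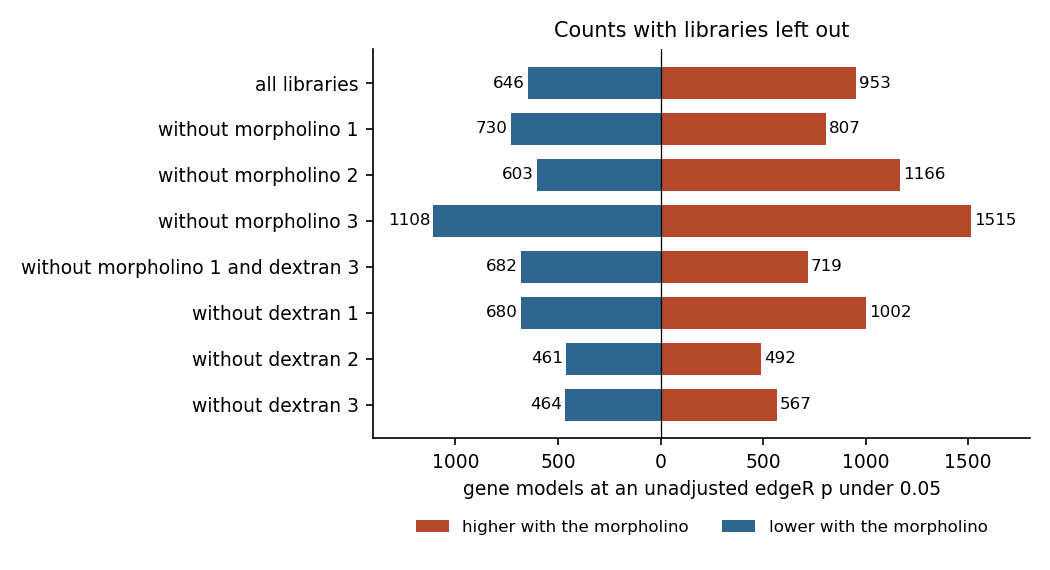
Number of gene models at an unadjusted edgeR p under 0.05, higher (red, right) or lower (blue, left) with the morpholino, with all libraries and with 1 or 2 libraries left out. The total is largest without morpholino replicate 3 (1515 higher, 1108 lower) and smallest without dextran replicate 2 (492 higher, 461 lower).

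With both morpholino replicate 1 and dextran replicate 3 left out, edgeR called 20 of 13991 models (0.143%), 5 higher (0.0357%) and 15 lower (0.107%) at an adjusted p under 0.05. Among them were models 194914 (log2 fold change 2.91), 246365 (-2.88) and 183101 (-2.27). The 5 higher models had log2 fold changes from 1.67 to 2.91 and the 15 lower ones from -2.97 to -1.76. The balance between directions was close to even at an unadjusted p under 0.05, with 719 higher (5.14%) and 682 lower (4.87%), or 1401 in all (10% of those tested). In that fit each compared group held 2 libraries.

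The same models were then read in the 2 libraries that the fit had not used. These libraries had been left out because they diverged, and their levels were scaled together with all 9 libraries. The reading is therefore not an independent replication. Morpholino replicate 1 lay above dextran replicate 3 for 5 of the 5 higher models and below it for 15 of the 15 lower ones. The difference was at least 2-fold (with 0.5 CPM added) for 4 of the 5 and 10 of the 15. Of all tested models, 24.4% lay at least 2-fold above and 26.8% at least 2-fold below. The weakest of the lower models stood at 52.7 CPM in morpholino replicate 1 and 55.4 CPM in dextran replicate 3, a log2 difference of -0.07, although it was at 37.8 and 35.8 CPM against 111 and 163 CPM in the libraries of the fit. The widest difference among the higher models was 2262 against 67.3 CPM, for a model that stood at 245 and 254 CPM in morpholino replicates 2 and 3 and at 54.7 and 78.0 CPM in dextran replicates 1 and 2. Of the 719 models higher at an unadjusted p under 0.05, 456 (63.4%) were also higher in morpholino replicate 1 than in dextran replicate 3, against 48.1% of all tested models. Of the 682 lower ones, 533 (78.2%) were also lower, against 51.2% of all tested models. A single library against a single library has no replicate check, and models that move together make these counts less firm than their number implies.

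**Figure D5:**
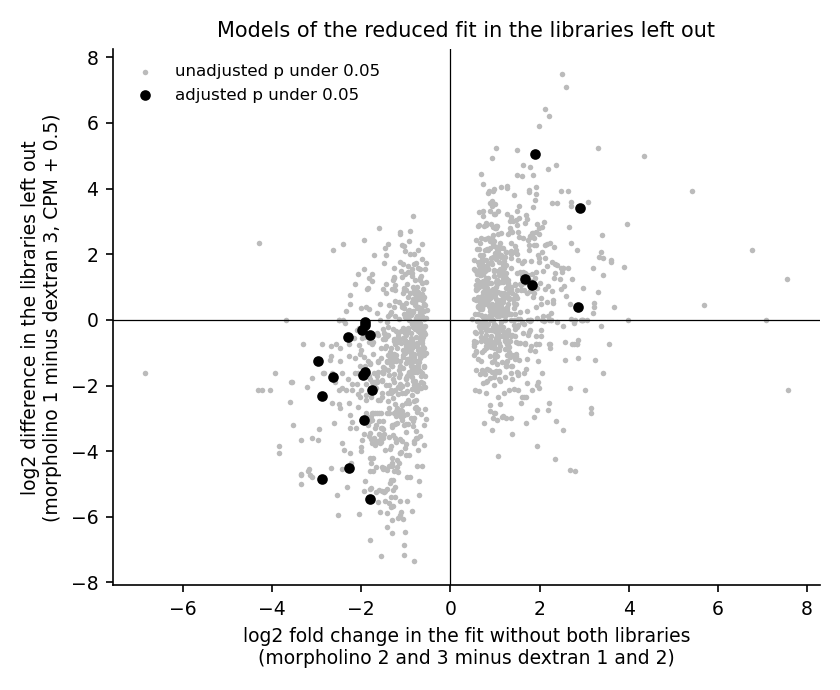
For the 1401 gene models at an unadjusted edgeR p under 0.05 in the fit without morpholino replicate 1 and dextran replicate 3, the log2 fold change of that fit (horizontal) against the log2 difference between those 2 libraries (vertical, morpholino minus dextran, with 0.5 CPM added); black points are the 20 models at an adjusted p under 0.05. All 20 black points lie in the lower left (15) or upper right (5) quadrant.

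The differences were spread over the whole range of abundance. At a mean of 1 to 10 CPM, an unadjusted p under 0.05 was found for 209 higher and 172 lower models of 4140 tested (9.20% together). At 10 to 100 CPM the counts were 532 and 381 of 7380 (12.4%), and at 100 to 1000 CPM they were 205 and 85 of 1910 (15.2%). Among the 125 models of at least 1000 CPM, 7 stood higher and 8 lower (12%). The excess of higher models at 100 to 1000 CPM was smaller with library totals (146 higher, 98 lower), and with totals the lower models outnumbered the higher ones at 10 to 100 CPM (301 higher, 373 lower) and at 1 to 10 CPM (132 higher, 169 lower). The excess at 100 to 1000 CPM was also smaller without both divergent libraries (128 higher, 98 lower). The median SD between libraries of a group, on the log2 scale with 0.5 CPM added, fell from 0.81 at 1 to 10 CPM to 0.54 at 10 to 100 CPM and 0.48 above 100 CPM.

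Models present in one group alone were few and rested on few reads. Of the 21394 models with at least 1 count in any of the 6 libraries, 55 had counts in all 3 morpholino libraries and 0 in all 3 dextran libraries. The reverse held for 61. Only 1 of the 55 and 0 of the 61 were among the models tested. A total of 10 counts or fewer lay behind 34 of the 55 and 46 of the 61. The best covered model of the first kind had 2, 14 and 32 counts in morpholino replicates 1, 2 and 3, and the best covered of the second kind had 1, 4 and 28 counts in dextran replicates 1, 2 and 3. No fold is given for them. At this depth a count of 0 does not show that a transcript was absent.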

How the data were processed

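Poly-A RNA of whole embryos was measured in 9 libraries, of which 6 are compared here. The authors deposited a table of raw counts of reads on each reference sequence for every library, made with Bowtie2 2.2.0 after FastQC, per the submitters' processing notes. How reads were counted, with or without strand, and where reads with several matches went, is not given in the sources used here. Near-identical models may share reads. Models absent from a table were entered as 0, and the 18S, 28S, mitochondrial and unassigned rows were left out of library sizes and tests. The unassigned row held 41.97% to 87.8% of the counts of the 6 libraries.

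These counts went into edgeR's quasi-likelihood test (edgeR 4.0.16, R 4.3.3; filterByExpr, TMM, glmQLFit, glmQLFTest), fitted to all 9 libraries with a mean for each group and 6 residual degrees of freedom. Benjamini-Hochberg adjustment ran over all models tested, and SEs were derived from the F statistic. DESeq2 1.42.0, limma 3.58.1 (voom), other scalings, filters, sample sets and covariates were tried as alternatives. Library measures were compared by exact permutation tests (scipy 1.17.1). The replicates are biological, per the design text. The named models, sets and alternatives were chosen with earlier results of these data known. The rule for names was the 2 models per direction with the smallest p among those whose mean reached 1 CPM and whose groups did not overlap. Lists of BMP, Wnt, axis, endomesoderm, cell type and stress genes were not tested, since no model could be paired with a symbol.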

Additional observations from a re-analysis of the deposited data

Results flagged for a closer look

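Counts on ribosomal RNA, which lie outside the gene models, were above the level of every dextran library in each morpholino library. The 28S sequence had a mean of 8211 CPM with the morpholino (SD 2748, n = 3) and 3549 CPM with dextran (SD 1213, n = 3). The 18S sequence had 6049 CPM (SD 2658) and 1995 CPM (SD 942), with an exact two-sided permutation p = 0.1 for each, the smallest that 3 libraries against 3 can give.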

How the results depend on the processing

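The edgeR count of 0 called models (1599 at an unadjusted p under 0.05) was also 0 with library totals, upper-quartile scaling, size factors of DESeq2, limma-voom, the robust fit, a minimum of 10 counts, the 6 libraries compared, the unassigned share as a covariate and adjusted p thresholds of 0.01 and 0.1. It was 228 with DESeq2's Wald test, 116 with quality weights in limma-voom, 6 with no filter, 20 without both divergent libraries and 0 to 10 with 1 library left out, the highest without dextran replicate 1. The unadjusted count was 970 in the fit on the 6 libraries compared and 953 to 2623 with 1 library left out, the lowest without dextran replicate 2 (1031 without dextran replicate 3) and the highest without morpholino replicate 3. Limma-voom gave 577 higher and 757 lower at that level. With the replicate number as a block edgeR called 0 models and gave 1383 (699 higher, 684 lower). The labels do not say that equal replicate numbers share a batch, so the numbers were not taken to pair the libraries. Deviations of same-numbered morpholino and dextran libraries from their group means correlated at -0.16, 0.01 and -0.22, against -0.12 to 0.20 for the other pairs. With 3 libraries a group, these correlations cannot show whether a batch was shared. Over the 19 alternatives the named models, whose direction their choice largely fixes, had log2 fold changes of 2.78 to 3.66 (model 194914), 3.08 to 4.44 (93004), -2.98 to -2.37 (246365) and -3.35 to -2.27 (183101). The causes of these shifts were not tested. Depth limits the scarce models most: 1 to 3 counts were all that 2154 to 3399 models had in a library.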

Other observations

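The names of the models carry the scaffold of the first genome assembly on which each was predicted. Scaffold 213, which holds model 246365, was singled out after its values were seen. The counts and ranks below include the values that led to this choice. Of its 28 tested models, 6 stood lower at an unadjusted edgeR p under 0.05, and 5 of these did so in every fit that left out a library, model 246365 included. Over all tested models the shares were 4.76% and 1.56%. Of 310 scaffolds with at least 10 tested models, it ranked 3 by the share of lower models (21.4%, behind 27.3% and 25% on scaffolds with 22 and 12 tested models) and 1 by the share that kept the p in every such fit, ahead of a scaffold with 2 of 12. The second of the 6 was at 3.71, 14.4 and 24.97 CPM in the morpholino libraries and at 79.2, 129 and 55.7 CPM in the dextran libraries. The third stood at 1.01, 15.4 and 14.4 CPM against 46.2, 57.2 and 65.9 CPM, and the fourth at 1.35, 10.8 and 22.4 CPM against 39.5, 50.2 and 84.9 CPM. The fifth stood at 1.01, 14.2 and 21.1 CPM against 38.7, 52.7 and 72.4 CPM. The sixth, which did not keep the p in every such fit, was scarce, at 0, 0.601 and 2.57 CPM against 2.61, 4.97 and 9.51 CPM. The third to the fifth share the very low level in morpholino replicate 1, which model 246365 lacks. Whether they are copies that share reads was not tested.

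Models from the tracks named estExt, which JGI extended with expressed sequence tags, stood higher in 8.44% and lower in 4.64% of 5533 tested models at an unadjusted edgeR p under 0.05. The values were 6.06% and 4.85% of 8026 models from the other tracks. The estExt models were also more abundant, with a median of 44.5 CPM against 12.6 CPM. At 10 to 100 CPM the shares higher were 8.04% of 3333 estExt models and 6.52% of 4047 others, and the shares lower 5.22% and 5.11%. At 100 to 1000 CPM the shares higher were 10.8% of 1407 and 10.5% of 503 models, and the shares lower 3.91% and 5.96%. These differences were not tested.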
